A study of Mus musculus with 4 samples.

Results

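The comparison described here set the skin of mice sensitised and challenged with the hapten oxazolone and harvested at day 10 against untreated skin. It used every called barcode with at least 300 detected genes and at most 15% mitochondrial UMIs (unique molecular identifiers, counts of captured RNA molecules). That left 16003 cells of the 27755 in the series: 8301 from the oxazolone library and 7702 from the untreated library. Both libraries came from female C57BL/6J mice of 6 to 8 weeks, and each pooled neck and ear skin of 3 mice. The oxazolone mice were sensitised with 3% oxazolone in acetone and mineral oil. From 7 days later, 100 µl of 1.0% oxazolone was put on every other day. The untreated mice received no vehicle, and no vehicle library was analysed here. In both groups the skin was digested with collagenase in place of 1 of the kit's enzymes, dead cells were removed before capture, and 3-prime droplet libraries were made. The series also holds oxazolone skin of day 16 and skin treated with MC903, a vitamin D analogue; those were used only to count shared barcodes.

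Oxazolone is a small reactive chemical that binds skin proteins and so becomes visible to T cells. A first exposure primes those T cells, and later exposures of the skin call up an inflammation known as contact hypersensitivity, in which keratinocytes, fibroblasts and vessels release chemokines and neutrophils, monocytes and lymphocytes enter the skin. Interferon gamma from T cells and natural killer (NK) cells is a known driver of antigen presentation genes in that reaction, and repeated oxazolone exposure is also used as a model with type 2 cytokines such as interleukin-4.

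Each group was 1 library of 3 pooled mice, so nothing here has a replicate check, and treatment cannot be told apart from library. Levels are UMIs of a gene per 1000000 UMIs, both summed over a group of cells (CPM). Differences are log2 ratios of oxazolone over untreated CPM, with exact 95% intervals that cover counting error only. A gene was measured in a comparison when the libraries together held at least 30 of its UMIs, and counted as higher or lower when the ratio was at least 2-fold. Where a library had 0 UMIs of a gene, 3 UMIs took its place, which makes the ratio a bound. In sums over a whole library, fewer cells of a type and less RNA per cell cannot be told apart.

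The libraries were close in depth. The oxazolone library held 118864274 UMIs with a median of 11597 per cell, and the untreated library 92728624 with a median of 10459. The filter left out 407 of 8708 and 53 of 7755 barcodes, and median mitochondrial shares were 2.23% and 2.43%. The libraries shared 15 barcodes. Xist gave 85677 and 76855 UMIs, and the Y-linked genes Eif2s3y and Kdm5d were at 0 in both. Another Y-linked gene, Ddx3y, gave 800 UMIs in 738 oxazolone cells and 2896 in 2211 untreated cells, so the Y-linked genes did not all match the label of female mice, and the source of the Ddx3y counts was not tested.

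Cells were sorted into gates by 6 marker genes per set, and a cell needed at least 3 of them. Neutrophils made up 22% of the oxazolone cells (1826 cells, 95% binomial interval 21.1 to 22.9%) and 0.208% of the untreated cells (16 cells, 0.119 to 0.337%). The share of the monocyte and macrophage gate was 23.4% (1939 cells) against 3.04% (234 cells). Together these gates held close to as many of the oxazolone cells as keratinocytes and fibroblasts held of the untreated cells. Alpha-beta T cells made up 2.83% against 1.01% of cells, NK cells 0.783% against 0.0779% (65 and 6 cells), and basophils 0.747% against 0.0519% (62 and 4 cells). Blood endothelial cells, which line vessels, were 1.40% against 0.325%.

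Resident populations had lower shares at day 10. Gamma-delta T cells, which in mouse skin are mostly dendritic epidermal T cells, had 0.410% (34 cells) against 7.60% (585 cells), a ratio of shares of 0.0539. Fibroblasts had 7.75% against 27.2%, keratinocytes 13.2% against 22.7%, and the dendritic gate, which includes Langerhans cells, 1.69% against 4.32%. Perichondrium, the sheath of ear cartilage, had 0.771% against 2.45%. The shares of mural cells (the contractile cells of vessel walls), Schwann cells and type 2 innate lymphoid cells (ILC2) had intervals that overlapped between the libraries. Shares add up to a whole, so a gain of leukocytes lowers every other share, and lost cells and a diluted share were not told apart. Median UMIs per cell were higher at day 10 in every gate with cells in both libraries except ILC2, by 1.31-fold (dendritic) to 4.05-fold (melanocyte), and 0.534-fold for ILC2. No gate took 16.5% and 20.2% of cells.

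**Figure D1:**
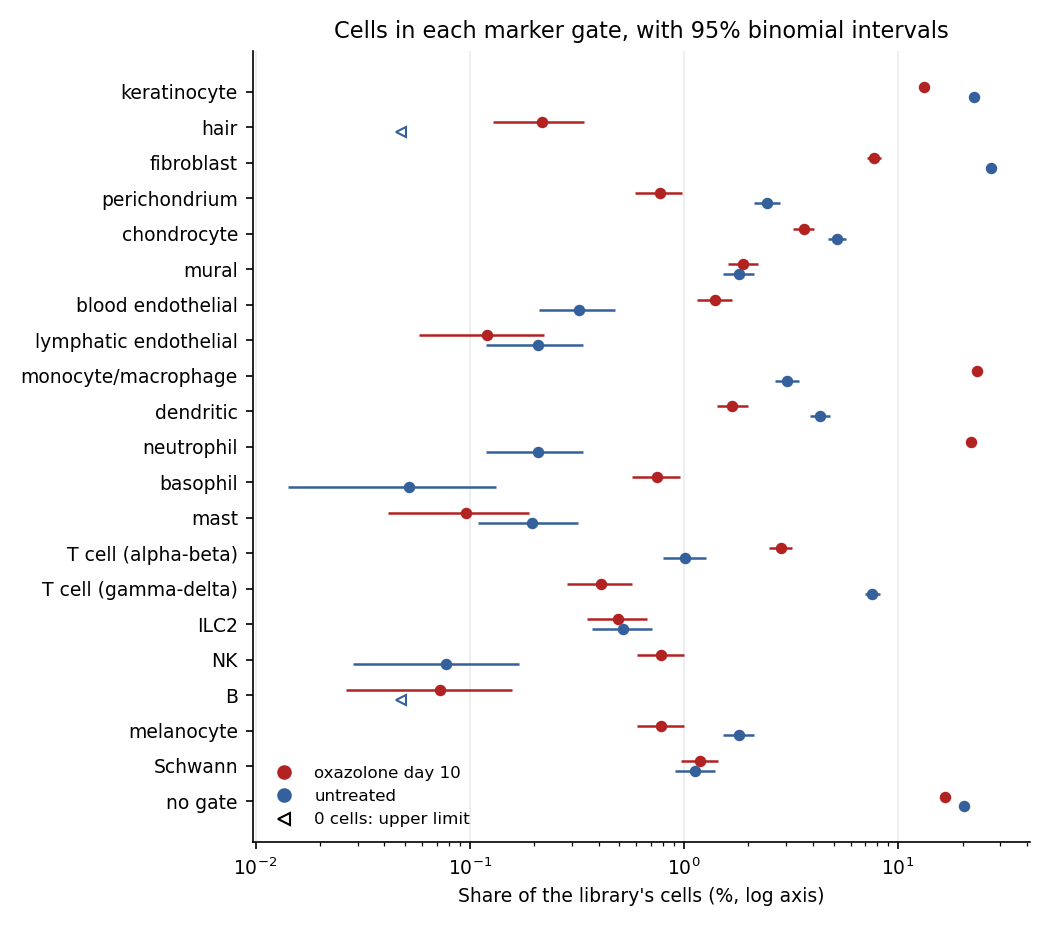
Share of each library's cells (%, log axis) in each marker gate, for oxazolone day 10 (red) and untreated skin (blue), with exact 95% binomial intervals. Open triangles mark the upper limit where a library had 0 cells. Neutrophils (22% against 0.208%) and gamma-delta T cells (0.410% against 7.60%) lie farthest apart, in opposite directions.

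Neutrophils, basophils, NK cells and blood endothelial cells had under 50 untreated cells, so only their day 10 levels are given. Neutrophils carried Stfa2l1, a cysteine protease inhibitor, at 1738 CPM, the collagenase Mmp8 at 1194 CPM and Acod1, the enzyme that makes itaconate, at 1254 CPM. The neutrophil attractant Cxcl2 stood at 7249.9 CPM and Il1b at 2028 CPM. The granule genes of maturing neutrophils were present at lower levels, with Ngp at 431 CPM, Camp at 136 CPM and Ltf at 69 CPM. Basophils held Il4 at 362 CPM and Il13 at 19.7 CPM, and beside these type 2 cytokines the chemokines Ccl3 (1607 CPM) and Ccl4 (1853 CPM), Il6 (454 CPM) and Osm (227 CPM). NK cells held Gzmb, a cytotoxic granule protease, at 514 CPM and Ifng at 46.5 CPM. Blood endothelial cells carried the adhesion molecules Sele (484 CPM) and Selp (499 CPM), on which leukocytes roll, the chemokine-binding receptor Ackr1 (323 CPM) and the T cell attractant Cxcl9 (392 CPM).

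Over the whole library, genes of incoming myeloid cells led the higher side. Of 19900 measured genes, 12% were at least 2-fold higher and 9.73% at least 2-fold lower at day 10, with a median log2 ratio of -0.01. The neutrophil surface gene Ly6g had 2485 UMIs against 1, a log2 ratio of 10.92 (interval 8.44 to 16.23). The calcium-binding alarmin S100a8 stood at 4701 against 10.0 CPM, Osm at 43.1 against 2.64 CPM and Arg1, which breaks down arginine, at 80.7 against 0.712 CPM. Cxcl5, another neutrophil attractant, stood at 192 against 0.108 CPM and the acute phase gene Saa3 at 238 against 0.302 CPM. On the lower side were genes of resting epidermis and of its T cells: Krt2, a keratin of the upper epidermis (0.227 against 16 CPM), the attractant Ccl20 (0.118 against 8.24 CPM), the defensin Defb6 (7.76 against 269 CPM) and Xcl1, a lymphocyte chemokine (2.52 against 66.8 CPM). Bpifa2, a salivary-type secreted protein, had 0 UMIs at day 10 and 1384 in untreated skin, 97.5% of them in 5 cells.

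By group, 5 of 6 neutrophil attractants were higher (median 5.75), 6 of 8 monocyte-attracting CC chemokines (2.98), 11 of 13 antimicrobial and acute phase genes (5.66) and 9 of 13 inflammatory phagocyte genes (2.93). Interferon-stimulated genes gave 11 of 14 higher and interferon gamma targets 8 of 11. Lists with more lower than higher members were the immediate early genes (9 of 17 lower), nerve-related genes (5 of 11), type 2 cytokines and alarmins (4 of 9), adipose and lipid genes (5 of 13) and genes of quiescent dermis (8 of 21). So were barrier genes (5 of 18), collagens and matrix genes (5 of 24) and NF-kB targets (1 of 14). Over all measured genes 12% were higher and 9.73% lower.

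Classical type 2 cytokines were scarce and did not move together. Il4 gave 324 UMIs at day 10 against 77 (log2 ratio 1.71), and 45.4% of the day 10 UMIs lay in the 62 basophils. Il13 gave 34 against 114 UMIs (-2.10) and Il5 10 against 195 (-4.64), with 87.2% of the untreated Il5 UMIs in 5 cells. The epithelial alarmin Tslp gave 89 against 111 UMIs (-0.68). Il17a gave 53 UMIs in each library, 88.7% and 75.5% of them in 5 cells, so its level rests on very few cells. Of the whole group, 2 of 9 measured members were higher and 4 lower. Ifng had 191 against 61 UMIs (1.29), and alpha-beta T cells held 56% and 54.1% of them.

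A whole-library ratio mixes the gates' shares with the levels inside them. For each gene a day 10 level was therefore computed from the untreated levels within gates and the day 10 shares of UMIs. Gates with under 50 untreated cells kept their day 10 level, so genes of neutrophils or basophils count as makeup by construction. Among 1159 higher genes whose larger UMI sum reached 500, makeup alone gave at least 2-fold for 702 and stayed within 2-fold for 456, and 1 gene, Reg1, had a makeup level of 0 and so no ratio. Among 855 lower genes, makeup alone gave at least 2-fold lower for 105, stayed within 2-fold for 742 and gave 2-fold higher for 8. Gate makeup alone thus reached 2-fold for 60.6% of the higher and 12.3% of the lower genes, and for 21.5% of the lower genes without cells above the 98th percentile of UMIs.

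The genes with the widest gaps came from a few sources. Cxcl5 had an observed log2 ratio of 10.80 where makeup gave 2.20, and Reg3g, an antimicrobial lectin, 6.68 where makeup gave -0.80; 98% of the day 10 Cxcl5 UMIs lay in fibroblasts. Shh, a growth signal of the hair follicle, had a lower bound of 7.48 against 0.64 from makeup. On the other side, Krt2 had -6.14 against -0.31, and Lyz1, a lysozyme gene, -3.46 where makeup gave 2.11. Lyz1 was lower although the gate that held it was several times larger.

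**Figure D2:**
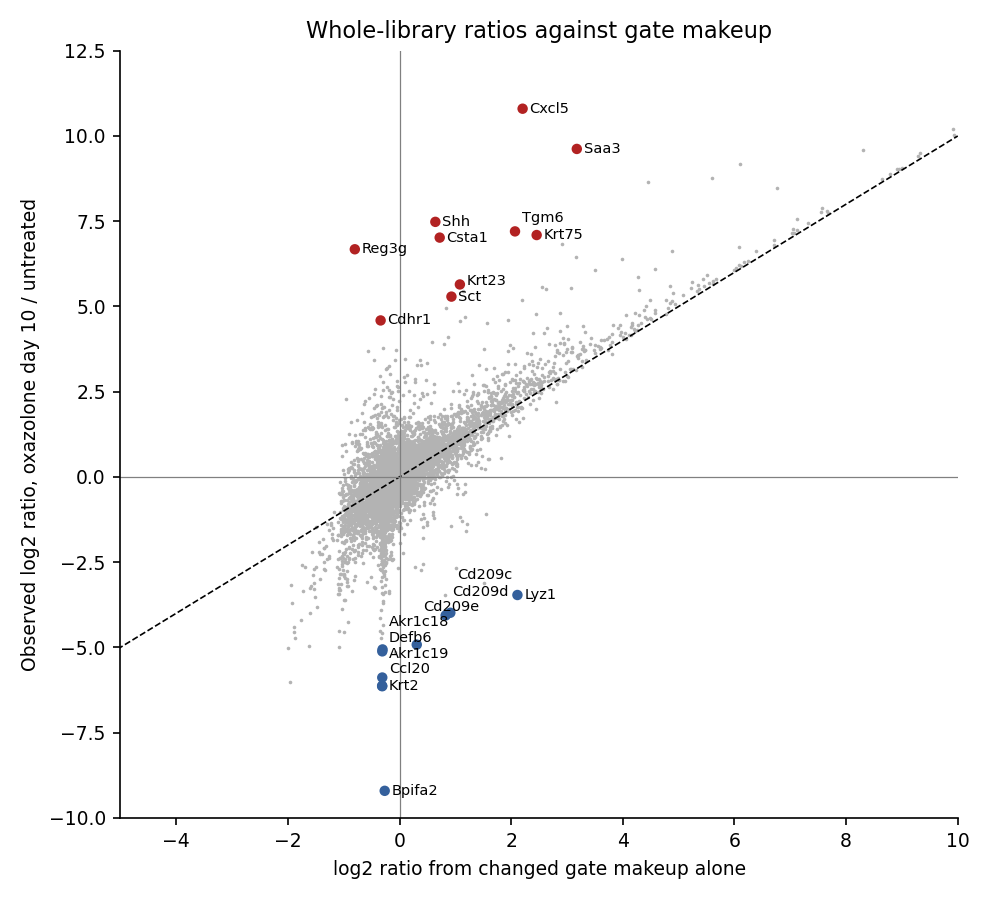
Observed log2 ratio of oxazolone day 10 over untreated skin against the ratio that changed gate makeup alone would give, for genes whose larger UMI sum reached 500 (grey). The dashed line marks equality. Red and blue points are the 10 genes farthest above and below it, among them Cxcl5 (10.80 observed, 2.20 from makeup) and Lyz1 (-3.46 and 2.11).

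Fibroblasts carried acute phase and chemokine genes that untreated skin nearly lacked. In this gate 9.4% of 15060 measured genes were higher and 7.15% lower, with a median of -0.01. Saa3 stood at 1637 against 0.253 CPM (25788 and 7 UMIs, log2 ratio 12.66, interval 11.62 to 13.97). Cxcl5 stood at 1422 against 0.253 CPM (22402 and 7 UMIs, 12.46, interval 11.41 to 13.77). At day 10 these transcripts were found in 156 and 215 of 643 cells. The 10 leading genes of the gate by fold over other cells held none of its own 6 markers and none of another gate's.

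Of the antimicrobial and acute phase genes, 10 of 11 were higher in fibroblasts (median log2 ratio 7.24). Hp, which binds haemoglobin, stood at 125 against 0.253 CPM. Lcn2, which withholds iron from bacteria, stood at 99.8 against 0.253 CPM, and 50.8% of its day 10 UMIs lay in 5 cells. S100a8 and S100a9 belong to this count too. S100a8 stood at 54.5 CPM here and at 49285 CPM in neutrophils. In this gate 6 neutrophil genes had a median of 0.132% of their neutrophil level (0.0990 to 0.249%). S100a8 and S100a9 are among those 6 genes, so that range cannot judge their levels. The part of free RNA in them was not tested. Lcn2 had 1520.1 CPM and Saa3 11.3 CPM in neutrophils, and both fibroblast levels lay above that range. The part of free RNA or mixed cells in the Lcn2 and Saa3 levels was not tested either. Reg1, a relative of Reg3g, had 589 UMIs against 0, at least 345-fold higher, and 54.5% of them lay in 5 cells.

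Chemokines and alarmin genes in fibroblasts pointed in several directions. All 5 measured neutrophil attractants and growth factors were higher, among them Csf3, the granulocyte growth factor (141 UMIs against 0, at least 82.6-fold). Cxcl14 stood at 763 against 56.4 CPM, Cxcl9 at 140.5 against 2.38 CPM and Ccl8, which draws in monocytes, at 199.6 against 63 CPM. Ccl11, the eosinophil attractant, was lower at 67 against 172 CPM, and Ccl2 was between (92.9 against 54.8 CPM). The alarmin Il33 stood at 151 against 12 CPM (a log2 ratio of 3.66, with an interval of 3.49 to 3.83) and its receptor gene Il1rl1 at 173 against 2.64 CPM (6.03). Fibroblasts held 93.8% of all Il33 UMIs at day 10, whereas keratinocytes held 57.2% in untreated skin. The interleukin-13 decoy receptor Il13ra2 stood at 55.2 against 6.39 CPM and Il4ra, the shared receptor chain for interleukin-4 and -13, at 95.5 against 39.2 CPM. Tnfsf11 (RANKL), an osteoclast-inducing cytokine, stood at 62.6 against 0.289 CPM.

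Matrix and remodelling genes differed by member. The wound matrix protein Tnc stood at 3016 against 256 CPM (log2 ratio 3.56), Col12a1, a fibril-associated collagen, at 988 against 129 CPM and Lox, which cross-links collagen, at 444 against 143 CPM. Collagens and matrix genes were otherwise mostly between the limits: 4 of 20 were higher and 0 lower. Of 15 metalloproteases and inhibitors 8 were higher, including Timp1, a protease inhibitor (1285 against 34.8 CPM), and Mmp3, which degrades matrix (597 against 158 CPM), while Timp2 (576 against 1525 CPM) and Timp3 (247 against 688 CPM) were lower. Contractile genes gave 7 of 10 higher, with Acta2 (smooth muscle actin) at 146 against 42.2 CPM, and cell cycle genes gave 14 of 15 higher, with Mki67 at 50.2 against 6.50 CPM. Myh11, a mural marker, stood at 14.3 against 8.99 CPM, with 95.6% of its day 10 UMIs in 5 cells, and the part of mural cells in the contractile count was not tested. Mki67 UMIs were found in 78 of 643 day 10 and 29 of 2093 untreated cells.

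Genes of quiescent dermis stood lower in part. Gsn, an actin-severing protein abundant in resting fibroblasts, stood at 910.3 against 5283 CPM (log2 ratio -2.54). Clec3b stood at 181 against 767 CPM and Dpp4, a surface peptidase of upper and fascial fibroblasts, at 20.4 against 112 CPM. Across that group 5 of 21 members were lower and 5 higher, so the group as a whole did not stand lower, and Cxcl12, a niche chemokine, was higher at 857 against 267 CPM.

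**Figure D3:**
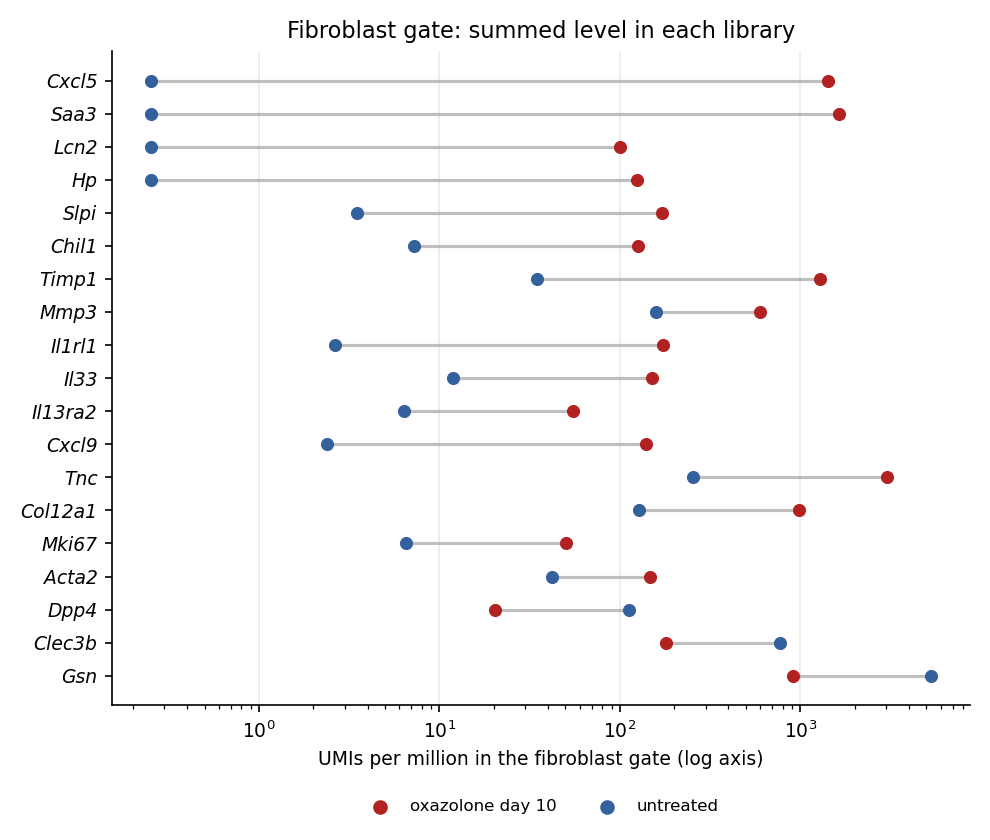
Level of 19 genes in the fibroblast gate, in CPM summed over the gate's cells (log axis), for oxazolone day 10 (red) and untreated skin (blue). Saa3 and Cxcl5 span the widest gap, and Gsn, Clec3b and Dpp4 are the genes with the untreated level on the right.

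Hair follicle regulators stood higher in the keratinocyte gate at day 10. A UMI of at least 1 of 7 hair follicle regulators (Shh, Msx2, Foxn1, Lef1, Wnt10b, Dlx3, Hoxc13) was found in 783 of 1099 day 10 cells and in 338 of 1746 untreated cells, at a median depth of 23065 and 14046 UMIs per cell. By the gate's own markers 1060 and 1691 cells matched the basal set best and 3 and 6 the follicle set, so different cells and changed expression were not told apart. Of the measured follicle regulators 8 of 9 were higher, with Lef1, a Wnt pathway factor, at 373 against 14.3 CPM and Msx2, a homeobox factor, at 41.3 against 2.67 CPM. In the whole gate 12.3% of 15298 genes were higher and 8.47% lower, and the median of all genes was shifted by 0.15 on the log2 scale. Values are therefore given with and without those cells. Without them 316 and 1408 cells remained, 7.85% of genes were higher and 7.77% lower, and the median was 0.08. That split was chosen after the data were seen.

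Krt6a and Krt16 were higher in both versions. Some follicle genes were higher in both as well. Without follicle-regulator cells the follicle stem cell genes Lhx2 and Lgr5 still stood at 112 against 19.4 CPM and 123 against 22.1 CPM, and Krt17, a keratin of follicles and of wounded epidermis, at 1382 against 212 CPM. Follicle keratinocytes can carry these keratins, and their part in the ratios was not tested. Krt6a, the keratin of injured and inflamed epidermis, stood at 209 against 29 CPM in the whole gate (log2 ratio 2.85, interval 2.74 to 2.96) and at 382 against 26.5 CPM without follicle-regulator cells (3.85). Krt16, its usual partner, stood at 34.6 against 2.49 CPM, with 73.5% of its day 10 UMIs in 5 cells, and at 26.9 against 2.63 CPM without those cells. The cystatin-like Stfa1 had 450 against 3 UMIs, and Stfa3 stood at 44.1 against 6.94 CPM. Other members of the same list were lower, Ifi202b at 3.26 against 61.5 CPM, Sprr1a, a cornified envelope protein, at 1.86 against 17.2 CPM and Serpinb2 at 17 against 69.4 CPM. In all, 6 of 10 were higher and 4 lower, and the counts were the same without follicle-regulator cells. The growth factors Areg (13.7 against 1.52 CPM) and Nrg1 (69.2 against 13.6 CPM), which act on the EGF receptor family, were higher, and Hbegf was lower at 14.6 against 55.8 CPM.

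Barrier genes split as well. Krt2 stood at 0.896 against 50.1 CPM (log2 ratio -5.80), and without follicle-regulator cells it had 0 UMIs at day 10 against 423. The protease inhibitor Spink5, whose loss causes Netherton syndrome, stood at 0.860 against 13.5 CPM. The defensin Defb6 stood at 31.9 against 899 CPM and Ccl20 at 0.394 against 26.5 CPM. Lor (loricrin) was 2.50 in the whole gate and -0.68 without follicle-regulator cells, where only 6 and 26 UMIs were left. The barrier list gave 4 higher and 6 lower of 15, and 3 and 6 of 12 without those cells. Il33 was lower in this gate, at 2.26 against 21.2 CPM.

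Interferon-stimulated genes were mostly higher in the keratinocyte gate. Of them 11 of 13 were higher (median log2 ratio 2.01), and 9 of 9 without follicle-regulator cells (2.22). Oasl2, an antiviral sensor, stood at 10.8 against 0.964 CPM and Isg15, a ubiquitin-like modifier, at 13.5 against 1.89 CPM. Interferon gamma targets were split in this gate, with 4 higher and 2 lower of 8 (median 0.56). Without follicle-regulator cells 3 were higher and 1 lower of 7 (-0.05). Several leukocyte genes were also higher in the gate. S100a9 stood at 45.6 against 0.185 CPM, and it reached 59583 CPM in neutrophils. In the keratinocyte gate 6 neutrophil genes had a median of 0.0930% of their neutrophil level (0.0649 to 0.166%). S100a9 is 1 of those 6 genes, so that range cannot judge its level. The part of free RNA in it was not tested.

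**Figure D4:**
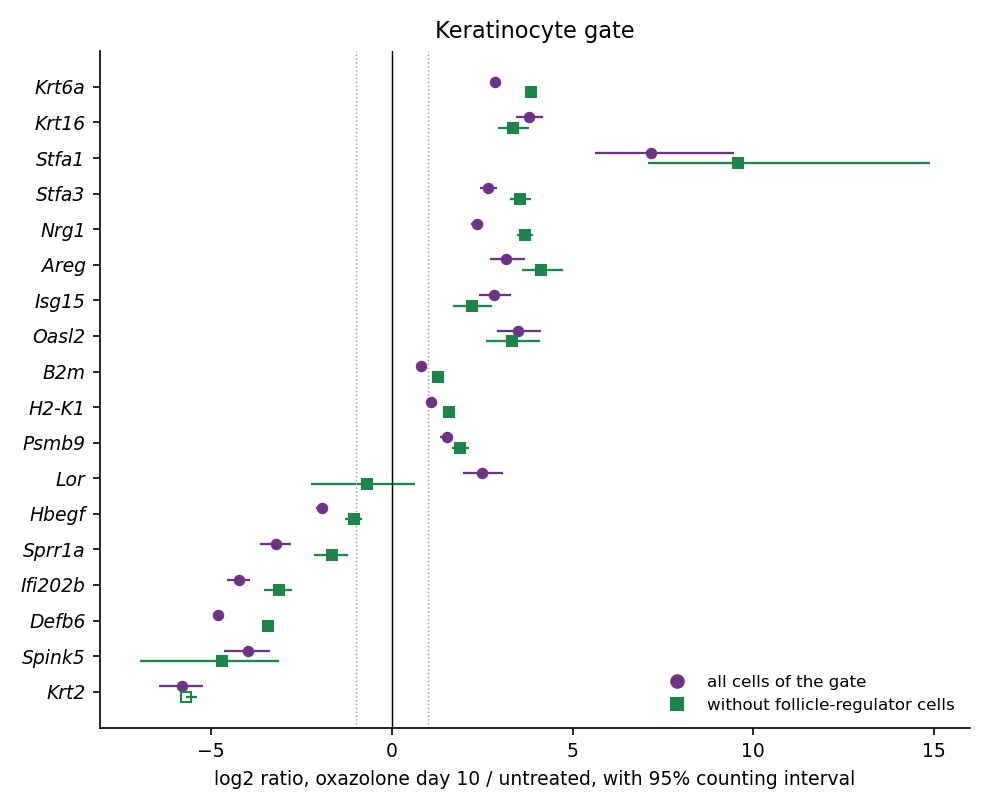
Log2 ratio of oxazolone day 10 over untreated skin for 18 genes in the keratinocyte gate, with 95% counting intervals, over all cells of the gate (purple circles) and without cells that held a follicle-regulator UMI (green squares). Dotted lines mark 2-fold, and the open square for Krt2 is a bound. Lor is the gene of the plot that crosses 0 between the versions.

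Monocytes and macrophages had single genes far higher and far lower at day 10, while the lists for their states were split. Alternative activation genes gave 4 higher and 3 lower of 11 (median -0.11), and inflammatory phagocyte genes 3 and 3 of 13 (-0.42). The makeup of the gate differed too. Cells that matched the monocyte markers best numbered 317 at day 10 and 11 in untreated skin, those that matched the C1q macrophage markers 364 and 68, and those that matched general phagocyte markers 529 and 124. The rest of the gate's 1939 day 10 and 234 untreated cells tied between these sets. Ratios in this gate mix these cells in different proportions, and the part of that in them was not tested. In this gate 8.07% of 12806 genes were higher and 9.57% lower (median 0.01). Arg1, of the alternative activation list, had 8250 UMIs at day 10 and 5 in untreated skin (312 against 2.00 CPM, log2 ratio 7.29, interval 6.06 to 8.91). Ccl8 stood at 1599.7 against 323 CPM, Il1rn, the interleukin-1 receptor antagonist, at 98 against 24.8 CPM and Osm at 55.4 against 22.8 CPM. Thbs1, a matricellular protein, stood at 411 against 46 CPM, the cystine importer Slc7a11 at 133 against 22 CPM and the collagenases Mmp13 and Mmp14 at 44.3 against 2.80 CPM and 206 against 34 CPM. Inflammatory cytokine genes were not uniformly higher. Tnf stood lower at 57.7 against 173 CPM and Il10 at 6.25 against 23.6 CPM, and Il1b was between (179 against 291 CPM). The 234 untreated cells carry these levels, and 88.1% of the untreated Il10 and 29.1% of the untreated Tnf UMIs lay in 5 cells.

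With the dendritic gate kept apart, the list of resident macrophage genes gave 2 of 8 lower and 0 higher. Among the lowest genes of the gate, Gfra2, a growth factor receptor, stood at 1.97 against 132 CPM (log2 ratio -6.07), and the C-type lectins Cd209e and Cd209d at 1.36 against 89.6 CPM and 5.76 against 290.5 CPM. Lyz1 stood at 5.72 against 283 CPM, the ribonuclease Ear2 at 6.93 against 230.1 CPM and the lectin Mgl2, a member of the alternative activation list, at 46.4 against 771 CPM. Cell cycle genes gave 12 of 15 lower (median -1.84), with Ccnb1 at 2.61 against 14 CPM. Interferon gamma targets gave 7 of 9 higher, Cxcl9 at 173 against 10.8 CPM and Iigp1, a GTPase against intracellular pathogens, at 116 against 12.8 CPM. Of 13 presentation genes 1 was higher and 1 lower, and the class II chaperone Cd74 stood at 4556 against 9574 CPM.

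The untreated dendritic gate held macrophage genes beside dendritic ones, so the gate boundary bears on these ratios. With the dendritic gate joined to the monocyte and macrophage gate, an alternative added after the data were seen, 9.78% of genes were higher and 11.5% lower. Arg1 then had a log2 ratio of 8.55, Gfra2 -5.97, Tnf -1.31 and Cd74 -1.39. Cell cycle genes gave 12 of 15 lower, interferon gamma targets 8 of 9 higher and interferon-stimulated genes 10 of 14 higher, against 5 of 14 without the dendritic cells. The lists for cell states moved too. Resident macrophage genes gave 2 higher and 2 lower of 9 (median 0.57). Alternative activation genes gave 5 higher and 2 lower of 11 (0.92), and inflammatory phagocyte genes 5 and 2 of 13 (-0.05).

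MHC class I genes were higher in some gates and not in others, and the difference between gates was not tested. Class I molecules show peptides from inside the cell to CD8 T cells: H2-K1 and H2-D1 encode the heavy chains, B2m the light chain, Tap1 the peptide pump, and Psmb8 and Psmb9 inducible subunits of the proteasome. These 6 genes were taken from the presentation list after its values were seen. All 6 were higher in mural cells and in melanocytes, and all 4 that were measured in Schwann cells. Keratinocytes had 4 of 6 higher (6 of 6 without follicle-regulator cells, but 1 with the median of all genes set to 0, since most ratios lay near 2-fold), perichondrium 2 of 3, fibroblasts and macrophages 1 of 6 each, and chondrocytes (0 of 4) and alpha-beta T cells (0 of 6) none. The background in those gates was 3.61% of 9260 genes higher in mural cells, 5.09% of 7509 in melanocytes, 8.61% of 6120 in Schwann cells, 3.46% of 8551 in perichondrium, 3.58% of 11972 in chondrocytes and 6.38% of 7963 in T cells. In T cells B2m stood at 1509.7 CPM in untreated skin, and the bearing of that level on the counts was not tested.

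B2m illustrates the spread. In mural cells it stood at 1156 against 396 CPM, with an interval of 1.40 to 1.69 around a log2 ratio of 1.55. In melanocytes it stood at 1868 against 616 CPM (1.60) and in Schwann cells at 1882 against 347 CPM (2.44). In those gates the day 10 level came close to the 1380 CPM of T cells or passed it. H2-D1 in Schwann cells stood at 921 against 82.2 CPM (3.49), and Psmb9 in melanocytes at 55 against 10.7 CPM. In fibroblasts B2m stood at 1074 against 636 CPM (0.75) and in chondrocytes at 228 against 129 CPM (0.82), both under 2-fold. The free-RNA level in the mural, melanocyte and Schwann gates had a median of 0.347%, 0.340% and 0.348% of the macrophage level for 6 macrophage genes, with ranges of 0.196 to 0.409%, 0.0986 to 1.29% and 0 to 13%. B2m stood at 2183 CPM in macrophages, and the part of free RNA in these B2m levels was not tested.

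The promoters of 4 such genes are shown because class I genes and interferon gamma targets were higher in several gates, though not in all. Interferon and NF-kB motifs in these windows are also classical elements of antigen presentation genes. The sequences are RefSeq promoters of the 200 bases before the start site on GRCm38.p6, all on the plus strand, and capitals mark motif matches. The intervals are chr2:122147487-122147686 for B2m, chr17:35262894-35263093 for H2-D1, chr17:34197995-34198194 for Psmb8 and chr3:142620463-142620662 for Gbp2, an interferon gamma target.
B2m: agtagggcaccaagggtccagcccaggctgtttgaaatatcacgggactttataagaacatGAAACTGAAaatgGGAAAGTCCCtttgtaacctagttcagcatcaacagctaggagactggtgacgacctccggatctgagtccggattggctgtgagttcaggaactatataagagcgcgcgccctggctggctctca
H2-D1: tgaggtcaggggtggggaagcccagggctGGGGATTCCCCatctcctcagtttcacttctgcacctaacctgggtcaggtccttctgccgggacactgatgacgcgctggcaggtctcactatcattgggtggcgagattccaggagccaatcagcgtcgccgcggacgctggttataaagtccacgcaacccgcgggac
Psmb8: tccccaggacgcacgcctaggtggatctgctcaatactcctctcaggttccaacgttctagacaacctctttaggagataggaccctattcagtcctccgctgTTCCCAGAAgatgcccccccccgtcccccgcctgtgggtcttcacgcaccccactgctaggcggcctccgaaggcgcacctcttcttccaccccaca
Gbp2: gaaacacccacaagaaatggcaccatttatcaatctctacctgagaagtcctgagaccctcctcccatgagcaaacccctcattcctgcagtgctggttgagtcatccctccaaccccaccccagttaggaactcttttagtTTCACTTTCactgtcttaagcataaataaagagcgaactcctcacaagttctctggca
The motifs searched, on both strands, were GAAANNGAA for the core of the interferon-stimulated response element and TTCNNNGAA for the gamma-activated site, along with the degenerate NF-kB consensus. In B2m the first lies at 139 to 131 bases before the start, followed by an NF-kB match on the minus strand from 126 to 117. H2-D1 holds overlapping NF-kB matches on both strands from 171 to 161. After them it holds tttcacttc, which on the minus strand has GAAA after GAA. The searched core has GAAA before GAA, so it cannot match such a stretch. Psmb8 holds a gamma-activated site from 97 to 89, and Gbp2 a response element core on the minus strand from 58 to 50. No match of one motif overlaps a match of another in these 4 windows. Of 32851 promoters of the same length, 5.57% held the response element core, 5.49% the gamma-activated site and 6.07% the NF-kB motif. Of the 6 class I genes, all of them matched to a promoter, 1 held the first in the searched form, 1 the second and 3 the third. Of 8 matched interferon gamma targets among 11, the numbers were 6, 2 and 3. A gene was counted when any of its promoters held a match, whereas the shares are per promoter. These gene counts and shares are therefore unlike measures. A match is a sequence description and says nothing of binding in these cells.

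**Figure D5:**
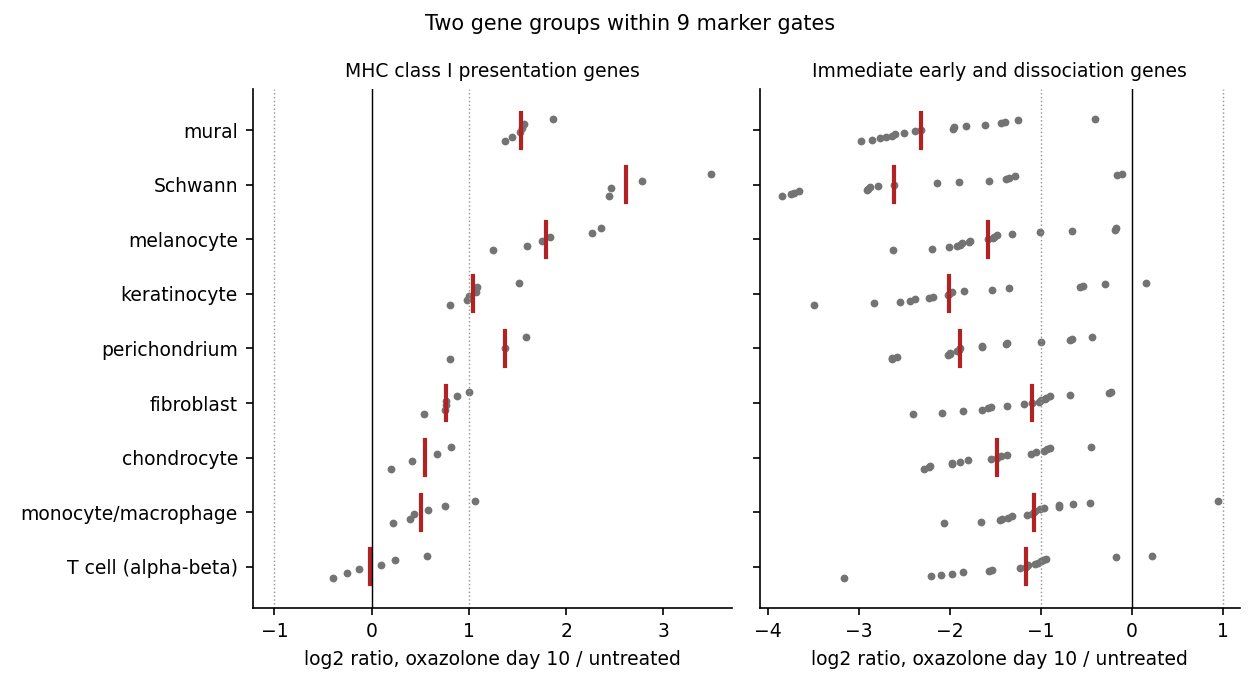
Log2 ratio of oxazolone day 10 over untreated skin for each measured member (grey points) of the MHC class I genes (left) and of the immediate early and dissociation genes (right) within 9 gates. Red bars are medians, and dotted lines mark 2-fold. The class I medians run from -0.02 in T cells to 2.62 in Schwann cells, and the immediate early medians lie below 0 in all 9 gates.

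Interferon gene lists differed between the mural, Schwann and melanocyte gates, a difference that was not tested. Interferon gamma targets were higher for 6 of 7 in mural cells, 1 of 2 in Schwann cells and 3 of 5 in melanocytes, and interferon-stimulated genes for 2 of 9, 4 of 6 and 6 of 8. Elsewhere fewer interferon gamma targets were higher: 2 of 9 in fibroblasts (1 lower) and 1 of 9 in alpha-beta T cells (0 lower). Chondrocytes had 1 of 4 higher and 2 lower, and perichondrium 0 of 2 higher and 2 lower. Among the members in mural cells were Iigp1 at 198 against 31.6 CPM and Gbp2 at 57.8 against 13.2 CPM. Cxcl9 gave 286 UMIs against 0 there, at least 42.4-fold higher, 79.7% of them in 5 cells. Ednrb, an endothelin receptor, stood at 187 against 12.3 CPM and Tnc at 97.9 against 13.2 CPM. 4.02% of genes were lower in the gate. In Schwann cells the interferon-inducible membrane genes Bst2 (149 against 18 CPM) and Ifitm3 (326 against 48.8 CPM) were higher, and so were the matrix genes Postn (575 against 64.2 CPM) and Tnc (66 and 2 UMIs), with 58.4% of the day 10 Postn UMIs in 5 cells. 4.41% of genes were lower there. In melanocytes Bst2 stood at 233 against 45.8 CPM and Iigp1 at 161 UMIs against 1. Of the cell cycle genes 8 of 9 were higher in melanocytes and 0 of 3 in Schwann cells, but in melanocytes Mki67 UMIs came from 11 of 65 cells and 84.2% of them lay in 5. 6.22% of genes were lower in the gate, and the pigment gene Oca2 stood at 2039 against 539 CPM.

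In alpha-beta T cells 4 of 19 T cell and regulatory genes were higher and 3 lower, and 5.54% of all genes were lower. The granule protease Gzmb stood at 355 against 116 CPM (a log2 ratio of 1.61, with an interval of 1.21 to 2.04), the inhibitory receptor gene Pdcd1 at 86.1 against 28 CPM and Cd8a at 97.5 against 43 CPM. The NK receptor gene Klrc1 stood at 189 against 23.7 CPM and Ccl4 at 140.3 against 8.60 CPM. Lower were Ccr6, the receptor of Ccl20 (28.2 against 81.7 CPM), and Areg (28.2 against 125 CPM). Ifng stood at 48.7 against 71 CPM, with an interval of -1.12 to 0.07 that included 0. Il4 had 36 UMIs against 0 in this gate, all of them in 5 of 235 cells. With 78 untreated cells, 85.2% of the untreated Gzmb UMIs lay in 5 cells.

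Ear cartilage cells had more complement genes higher than lower, and their matrix genes were mostly within 2-fold. Chondrocytes had 4.62% of genes lower. Of 24 collagens and matrix genes 2 were higher and 7 lower in chondrocytes, and 0 and 2 of 23 in perichondrium. Serpina3n, an acute phase protease inhibitor, stood at 168 against 8.31 CPM (log2 ratio 4.34). The higher matrix genes were Lox at 803 against 133 CPM and Eln, the elastin of ear cartilage, at 13720 against 4168 CPM, and lower ones included Col1a1, a chain of type I collagen, at 170.3 against 603 CPM and Postn at 9.09 against 64.9 CPM, with 92.7% of its untreated UMIs in 5 cells. Of 8 complement genes 4 were higher and 1 lower, C3 at 94.1 against 34.4 CPM and C4b at 554 against 245 CPM. Cell cycle genes gave 8 of 12 higher, and 81.2% of the 112 day 10 Mki67 UMIs lay in 5 cells. In perichondrium 8.93% of genes were lower and the median of all genes was shifted by -0.13. Complement genes were higher in 6 of 7 cases, with C3 at 238 against 11.3 CPM (4.40, interval 3.75 to 5.12). Chil1, a chitinase-like protein, stood at 1507 against 205 CPM in perichondrium and at 1107 against 376 CPM in chondrocytes.

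Immediate early and dissociation genes were lower in every gate compared. This list of 17 holds transcription factors and heat shock genes that respond within minutes to stress, tissue digestion included. Members at least 2-fold lower numbered 13 in keratinocytes, 11 in fibroblasts, 11 in macrophages, 16 in mural cells, 13 in T cells, 13 in perichondrium, 13 in chondrocytes, 14 in melanocytes and 15 in Schwann cells, and none was higher. The medians ran from -1.07 to -2.62. Fos stood at 254 against 1372 CPM in keratinocytes, at 234 against 2954 CPM in Schwann cells and at 610.0 against 1062 CPM in macrophages, where it was under 2-fold. With the dendritic gate joined, macrophages had 1 member higher and 10 lower. With 1 library per group, the skin and the handling of the 2 suspensions cannot be told apart as the source of this difference.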

How the data were processed

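RNA of 2 droplet libraries (3-prime chemistry, 3 pooled mice each) was compared. The deposited files hold raw UMI counts per gene and barcode for 32285 genes, written by Cell Ranger 7.2.0 per the file headers; Cell Ranger 8.0 and mm10 are named per the submitters' processing notes. The sources used here give no other filter of the authors and no cell labels. Barcodes with under 300 genes or over 15% mitochondrial UMIs were left out. No doublet caller was run: a cell needed 3 of 6 markers, each with a UMI and at least 100 CPM, and at least 2 more than for any other lineage, which leaves many mixed cells without a gate.

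Counts were summed per library and gate and divided by their total. Ratios carry conditional binomial intervals and shares Clopper-Pearson intervals (95%, counting error only); with 1 library per group no test was made. Python 3.11.15, numpy 2.4.6, scipy 1.17.1 and pandas 2.3.3 were used, and the code was tested on simulated data. Gates with under 50 cells in a library, and the dendritic gate, were given no ratios, and a gate's own markers were left out of its counts.

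The comparison, the 31 gene lists and the markers were chosen with earlier results of these data known. Named genes were the 15 highest and 15 lowest of the whole library at 500 UMIs or more, the 8 and 8 of each gate at 200 UMIs or more, the 10 widest gaps of the makeup split, up to 4 leading members per list, and a set of cytokine and keratin genes. B2m, Fos and other class I genes in gates where they do not lead, as well as Gsn, Ccl2, Il1b, Mki67, Lor, Myh11, Krt17, Lhx2 and Lgr5 where they do not, were chosen after their values were seen. Alternatives varied the cell filter, the UMI minimum, the scaling, the gate rule and free RNA; joining the dendritic gate and leaving out follicle-regulator cells were added after seeing the data.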

Additional observations from a re-analysis of the deposited data

Results flagged for a closer look

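Groups of genes with 50% or more of their measured members higher in 1 gate and lower in another were looked at again. Each is a comparison of log2 ratios between gates of the same 2 libraries, and the difference between gates was not tested. Cell cycle genes had a median of 2.95 in fibroblasts (14 of 15 higher), 3.36 in chondrocytes (8 of 12), 2.83 in melanocytes (8 of 9) and 0.98 in mural cells (5 of 10), and of -1.84 in monocytes and macrophages (12 of 15 lower). The untreated level in monocytes and macrophages rests on 234 cells. Of the day 10 Mki67 UMIs, 81.2% in chondrocytes and 84.2% in melanocytes lay in 5 cells, against 28.1% in fibroblasts.

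Contractile genes had a median of 1.41 in fibroblasts (7 of 10 higher) and 2.00 in monocytes and macrophages (5 of 6), and of -4.44 in perichondrium (7 of 7 lower) and -2.41 in chondrocytes (5 of 6 lower). In perichondrium 95.3% of the 487 untreated Acta2 UMIs lay in 5 cells, and in monocytes and macrophages 75.9% of the 490 day 10 Acta2 UMIs did. Collagen and matrix genes had a median of 1.39 in melanocytes (8 of 12 higher) and of -1.10 in alpha-beta T cells (4 of 7 lower).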

How the results depend on the processing

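No paired analysis was possible because each group was 1 library. There were 127 named ratios of 2-fold or more, and 12 other settings varied the cell filter, UMI minimum, scaling, gate rule and free RNA. All ratios that could be compared kept their direction, and 121 (mean of per-cell CPM) to 127 stayed past 2-fold. A minimum of 100 UMIs left 123 to compare and taking off free RNA 125. A UMI minimum cannot change a ratio, and the gate rule and free-RNA settings cannot change a whole-library ratio. In those cases the outcome was fixed in advance. Leaving out follicle-regulator cells turned Lor in keratinocytes to -0.68, with few UMIs left, and lowered the keratinocyte genes higher to 1067. Counts of called genes moved with the UMI minimum by construction, since it sets which genes are measured. At 1 UMI, higher and lower genes numbered 3890 and 3770 in the whole library, 3915 and 3347 in keratinocytes, 4311 and 1898 in fibroblasts, 1012 and 3761 in mural cells, 880 and 5423 in T cells, 3861 and 1795 in perichondrium, 2223 and 2761 in chondrocytes, 1225 and 3212 in melanocytes and 1365 and 3877 in Schwann cells, and lower genes 7606 in macrophages. At 100 UMIs they numbered 926 and 667 in fibroblasts, 654 and 652 in macrophages, 98 and 123 in mural cells, 136 and 152 in T cells, 136 and 226 in perichondrium, 206 and 253 in chondrocytes, 106 and 134 in melanocytes and 142 and 80 in Schwann cells, and higher genes 1244 in keratinocytes. The mean of per-cell CPM gave 2952 lower genes in the whole library; the cause was not tested. The ratio of keratinocyte shares was 0.527 with markers on at 200 CPM and 0.512 with at least 4 markers, where that of fibroblasts was 0.243. Without cells above the 98th percentile of UMIs, makeup alone gave 2-fold for 21.5% of lower genes. The number of measured genes (8551 in perichondrium, 6120 in Schwann cells) shows that depth limits the smaller gates.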

Other observations

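Of the other Y-linked genes, Uty gave 6 UMIs in the untreated library and 3 in the oxazolone library.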
